A study of Mus musculus with 20 samples.

Results

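The genes described here encode secreted matrix proteins and the proteases that remodel matrix, measured as RNA in mouse brain monocytes and microglia after stroke. They were taken by gene symbol from a fixed list of 10 genes, and all 10 were present among the 16536 genes of one deposited table and the 16140 genes of the other. By role they are Sparc, Thbs1 and Tgfbi (matricellular proteins), Fn1, Npnt, Vcan and Ecm1 (structural and binding proteins), and Mmp14, Adam8 and Adamts1 (proteases).

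All 20 libraries came from brains taken 3 days after permanent photothrombosis, in which light on a circulating dye blocks vessels of the cortex for good, as in a stroke. Cxcr4-GFP reporter mice gave 4 libraries of monocytes (GFP-positive) and 4 of microglia (GFP-negative). The Cxcr4CreER line, in which tamoxifen switches on a recombinase, gave 3 libraries each of KO monocytes, Control monocytes, KO microglia and Control microglia; here the monocytes are labelled TdT-positive and the microglia TdT-negative in both genotypes. Reporter signal and population therefore coincide in every group, and no other sort marker, age, sex or tamoxifen schedule is given in the sources used here. KO microglia are reporter-negative cells of KO mice, and deletion of Cxcr4 in them is not shown. One tag in the titles (BrKo) is shared by all GFP libraries and the KO libraries and is not explained. In the reporter line, each animal or pool gave 1 monocyte and 1 microglia library, and these pairs stem from 2 mice combined, from 5 pooled mice and, in 2 cases, from 1 mouse. In the Cre line, 2 KO and 2 Control animals gave both populations.

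The matrix of the brain is a mesh of proteoglycans, hyaluronan and, around vessels, basement membrane. Matricellular proteins such as SPARC and thrombospondin 1 do not build this mesh but tune how cells adhere to it and respond to growth factors. After injury, fibronectin and versican form a provisional matrix, and membrane-bound or secreted metalloproteinases cut it. Microglia live in the brain, whereas monocytes enter it from blood, and both can make matrix proteins and proteases.

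Depth ranged from 617302 to 14927208 reads per GFP library, with 3029 to 14498 detected genes. It ranged from 9732177 to 56803993 reads per Cre library, with 10350 to 13316 genes. The ribosomal RNA gene Rn45s took 22.1% to 48.3% of the reads of a GFP library. GFP monocytes 3, GFP microglia 3 and GFP microglia 4 stood apart with 3029, 5598 and 3489 detected genes, so results that rest on them are also given without them. Values are normalized counts, in which 1 read equals 0.104 to 2.58 in GFP libraries and 0.375 to 2.19 in Cre libraries. The 2 tables were made with different kits and scaled separately, so no level is compared between them. Cxcr4, the targeted gene, averaged 777 ± 237 in KO monocytes and 1227 ± 91.4 in Control monocytes (SD, n = 3 each), without overlap but with a limma adjusted p of 0.962. Defining microglia markers summed to 4.29% to 17.8% of the microglial mean in GFP monocytes, 8.02% to 14.4% in KO monocytes and 9.51% to 13.2% in Control monocytes. Monocyte markers summed to 0.455% to 5.98% of the monocyte mean in GFP microglia, 4.55% to 5.46% in KO microglia and 4.13% to 6.99% in Control microglia.

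Most of these genes differed between the populations, and none passed the test between the genotypes. Sparc, Npnt and Adamts1 had lower means in monocytes, and Thbs1, Tgfbi, Fn1, Ecm1, Vcan, Adam8 and Mmp14 higher means, in all 3 comparisons of the populations. Of the 8 genes that could be tested in the GFP libraries, 2 were higher and 2 lower in monocytes at an adjusted p under 0.05, where 0.415% and 0.493% of all 7706 tested genes were, 0.908% together (limma on log2(value + 1), adjusted over all tested genes). In KO mice, 6 of the 10 were higher and 3 lower in monocytes, against 3.85% and 2.98% of 12432 tested genes, 6.83% together. In Control mice, 4 were higher and 3 lower, against 3.46% and 3.06%, 6.52% together. The list was drawn up with earlier results of these data known, so its counts describe these genes and are no independent evidence. In bulk libraries, fewer cells of a type and less RNA per cell cannot be told apart.

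**Figure D1:**
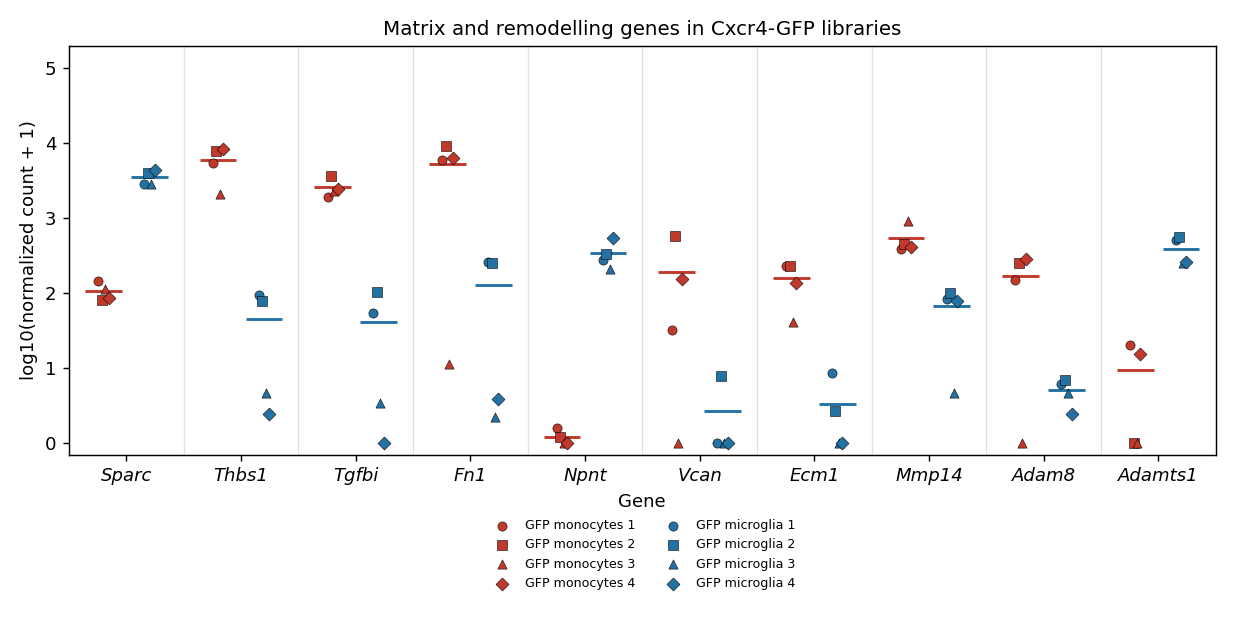
Normalized counts of the 10 genes in each Cxcr4-GFP library, on a log10(normalized count + 1) axis, with monocytes left of microglia for each gene. Points are libraries, bars are group means. Sparc lay between 80.2 and 143 in monocytes and between 2903 and 4362 in microglia, while Fn1 in GFP monocytes 3 was 10.6 against 6018 to 9141 in the other 3 monocyte libraries.

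**Figure D2:**
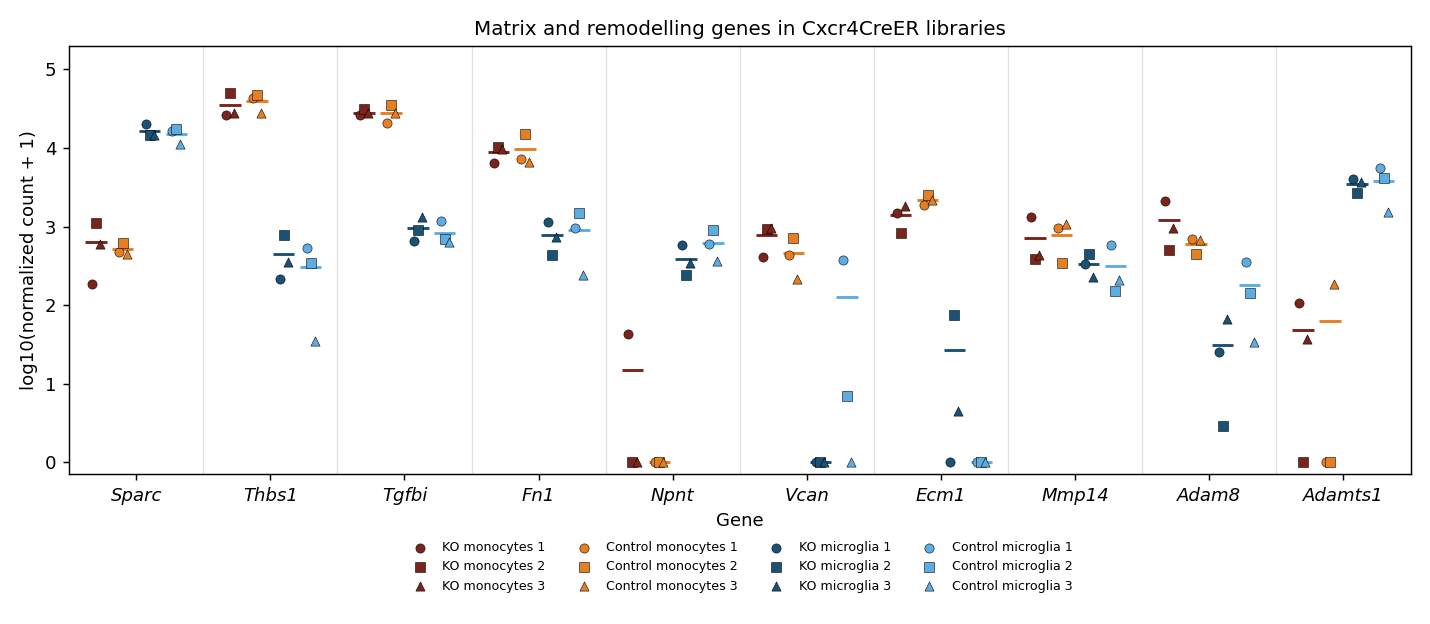
Normalized counts of the same genes in the 12 Cxcr4CreER libraries, on a log10(normalized count + 1) axis, with KO monocytes, Control monocytes, KO microglia and Control microglia from left to right. Points are libraries, bars are group means. Sparc spans 185 to 1121 in KO monocytes and 444 to 612 in Control monocytes, and Npnt is at 0 in 5 of the 6 monocyte libraries.

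Among the matricellular genes, Sparc, whose product binds collagen and loosens cell adhesion, had the smallest p of all 7706 genes tested in the GFP libraries. It stood at 143, 80.2, 112 and 84.8 in GFP monocytes, against 2903, 3988, 2916 and 4362 in GFP microglia. All 4 monocyte libraries were far below all 4 microglia libraries, including the 3 libraries with few detected genes. Sparc fell by 5.08 on the log2 scale (SE 0.56, limma adjusted p = 6.42e-06), a 33.7-fold lower mean in monocytes. In KO mice it was 185, 1121 and 604 in monocytes, against 20271, 14563 and 14688 in microglia (log2 -5.02, SE 0.52, limma adjusted p = 0.000188). Control monocytes held 474, 612 and 444, against 16602, 17617 and 11267 in Control microglia (log2 -4.88, SE 0.52, limma adjusted p = 0.000223). The groups did not overlap in any of the 3 comparisons, and the call held in every alternative fit tried.

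Thbs1, thrombospondin 1, which activates latent TGF-beta and binds the receptors CD36 and CD47, ran the other way. It was 5457, 7924, 2139.8 and 8374 in GFP monocytes, against 95.6, 79.2, 3.75 and 1.48 in GFP microglia. The groups did not overlap, and the lowest monocyte library was still above the highest microglia library by more than an order of magnitude. Thbs1 rose by 8.25 on the log2 scale (95% confidence interval 6.18 to 10.31, limma adjusted p = 1.57e-05). GFP microglia 3 and 4 held 3 and 1 reads, and without the 3 libraries of few genes the difference was 6.34 (SE 0.23, limma adjusted p = 3.44e-08). In KO mice Thbs1 was 26177, 50672 and 27640.3 in monocytes, against 214, 784 and 349.9 in microglia (log2 6.41, limma adjusted p = 0.000747). Control monocytes held 42889.8, 47578 and 27916, against 527, 343 and 34.2 in Control microglia (log2 7.70, limma adjusted p = 0.000238). Platelets carry thrombospondin 1, so their markers were read beside it. In the Cre libraries 5 of 6 platelet markers were detected in monocytes of each genotype, and they summed to 4428 to 6670 in KO monocytes and 3321 to 12221 in Control monocytes, against 285 to 367 in KO microglia and 505 to 863 in Control microglia. Most of that sum was Pf4, and Gp9 was at 0 in every Cre monocyte library. In GFP libraries the platelet markers of that table, with Treml1 in place of Gp6, summed to 0 to 113 in monocytes. They summed to 1.25 to 21.1 in GFP microglia. GFP monocytes 3 was at 0 for all 6 of them and held 2139.8 of Thbs1. That library had the fewest detected genes, 3029, and was also at 0 for Vcan and Adam8, so a 0 in it says little. The part of platelet RNA in the Thbs1 values was not tested in either line.

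Tgfbi, a TGF-beta-induced protein that binds integrins and collagen, was 1925, 3726, 2330.2 and 2438 in GFP monocytes, against 54.2, 104, 2.50 and 0 in GFP microglia. Again no library of one population reached the other, and Tgfbi rose by 7.73 (SE 1.20, limma adjusted p = 0.000334). Without the 3 libraries of few genes it was higher by 5.09 (SE 0.32, limma adjusted p = 1.61e-06). In KO mice it was 26312, 31083 and 27535 in monocytes, against 659, 906 and 1306 in microglia (log2 4.94, SE 0.33, limma adjusted p = 7.19e-06). In Control mice it was 20637, 35581 and 28185 in monocytes, against 1165, 686 and 629 in microglia (log2 5.11, SE 0.33, limma adjusted p = 6.55e-06). In the Cre fit Tgfbi had the smallest standard error of the 10 genes. Markers of border-associated macrophages, another resident cell of the brain's edges, had higher sums in Cre monocytes: 7672 to 11771 in KO and 6047 to 18787 in Control monocytes, against 895 to 1609 in KO and 1207 to 3394 in Control microglia. In the GFP line the sums were 2.64 to 1330.0 in monocytes and 1.25 to 183 in microglia. Of the 6 markers 5 were detected in Cre monocytes of each genotype, and Lyve1 was at 0 there. Pf4, which is also a platelet marker, and F13a1 made up most of the Cre monocyte sums. Mrc1 and Cbr2 differed in direction between groups. Mrc1 averaged 312 in Control monocytes and 971 in Control microglia, but 1012 in KO monocytes and 769 in KO microglia. Cbr2 averaged 181 in KO monocytes and 267 in KO microglia, but 481 in Control monocytes and 383 in Control microglia. In the GFP line both were higher in monocytes (Mrc1 230 against 63.8, Cbr2 63.9 against 1.94). The part of border-associated macrophages in the monocyte-high genes was not tested.

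Among the structural genes, Fn1 encodes fibronectin, a main protein of provisional matrix. It was 6018, 9141, 10.6 and 6367 in GFP monocytes, against 261, 252, 1.25 and 2.96 in GFP microglia. GFP monocytes 3 fell below GFP microglia 1 and 2, so the groups overlapped, and the difference of 5.68 did not pass the test (SE 1.67, limma adjusted p = 0.123). Without the 3 libraries of few genes Fn1 was higher in monocytes by 4.78 (SE 0.22, limma adjusted p = 1.70e-07), and when libraries of one animal or pool were blocked its adjusted p in limma was 0.0395. In KO mice Fn1 was 6538, 10430.3 and 9615 in monocytes, against 1142, 439.9 and 729 in microglia (log2 3.60, SE 0.62, limma adjusted p = 0.00465). In Control mice it was 7349, 15223 and 6546 in monocytes, against 951, 1491 and 242 in microglia (log2 3.68, SE 0.62, limma adjusted p = 0.00402). Both Cre comparisons were free of overlap.

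Npnt, nephronectin, an integrin ligand of basement membranes, was close to absent from monocytes. It was 0.627, 0.208, 0 and 0 in GFP monocytes, against 279, 331, 214 and 548 in GFP microglia. The GFP monocytes held 3 reads in all, and pooled over reads the level was 1397-fold lower than in microglia (95% counting interval 478 to 6775), with a limma adjusted p of 0.0263. This call was lost without GFP microglia 1, 2 or 3 (limma adjusted p = 0.0728, 0.0828 and 0.0712) and under upper quartile scaling (0.134). In KO mice Npnt was 41.6, 0 and 0 in monocytes, against 574, 243 and 347 in microglia (log2 -6.71, SE 1.43, limma adjusted p = 0.0159). KO monocytes 1 alone held reads, 48 of them. In Control mice all 3 monocyte libraries were at 0, against 608, 895 and 368 in microglia, which is at least 521-fold lower when 3 reads are granted to the group (limma adjusted p = 0.0026). The KO call was lost without KO monocytes 2 or 3, or KO microglia 1 or 3 (limma adjusted p 0.0547 to 0.0664). It was also lost in edgeR (adjusted p = 0.240), in DESeq2 (adjusted p = 0.0509) and with only the 2 KO groups in the limma fit (adjusted p = 0.0614). The Control call was lost in edgeR (adjusted p = 0.0517).

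Vcan, versican, is a large chondroitin sulphate proteoglycan that binds hyaluronan. It was 31.3, 589.5, 0 and 153 in GFP monocytes, against 0, 6.88, 0 and 0 in GFP microglia, too few high libraries to enter the test. In KO mice it was 410.4, 928 and 969 in monocytes and 0 in every microglia library, at least 716-fold higher in monocytes (limma adjusted p = 0.00678). Control monocytes had 437, 713 and 216, against 376, 5.91 and 0 in Control microglia, where Control microglia 1 overlapped the monocytes (log2 4.89, SE 1.74, limma adjusted p = 0.136). Without Control microglia 1 the Control difference was 7.28 (limma adjusted p = 0.00778), so 1 library decided that call. Monocyte markers in Control microglia 1 summed to 4.13% of the monocyte mean, the lowest of the 3 Control microglia libraries. Lyz2 made up most of these sums. Ly6c2 stood at 2.81% there and at 0% and 0.0122% in Control microglia 2 and 3. Ccr2 (0.161%) and Chil3 (0.0305%) were also highest there. Itga4, Lyz2 and Cd44 were lowest there, and Ms4a7 and Plac8 lay between. The part of monocyte RNA in the Vcan value was not tested.

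Ecm1, a secreted glycoprotein that binds other matrix proteins, was 233, 234, 41.0 and 136 in GFP monocytes, against 7.75, 1.72, 0 and 0 in GFP microglia. These groups did not overlap, yet the difference did not pass the test (log2 5.92, SE 1.93, limma adjusted p = 0.209), while without the 3 libraries of few genes it was 5.33 (SE 0.56, limma adjusted p = 6.64e-05). In KO mice Ecm1 was 1488, 818 and 1844 in monocytes, against 0, 74.9 and 3.45 in microglia (log2 7.56, SE 1.34, limma adjusted p = 0.00551). In Control mice it was 1886, 2495 and 2185 in monocytes, and no read of it was found in Control microglia, which places it at least 2632-fold higher in monocytes (limma adjusted p = 0.000454). In edgeR the KO difference had an adjusted p of 0.0621.

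Among the proteases, Mmp14 encodes a membrane-bound metalloproteinase that cuts collagen and activates pro-MMP2. It was 387, 451, 934 and 414 in GFP monocytes, against 82.7, 99.8, 3.75 and 78.5 in GFP microglia. The groups did not overlap, the difference was 3.60 (SE 1.11, limma adjusted p = 0.156), and without the 3 libraries of few genes it was 2.18 (SE 0.24, limma adjusted p = 9.46e-05). In KO mice Mmp14 was 1313, 384 and 439 in monocytes, against 330.1, 449 and 226 in microglia. Control values were 954, 338 and 1066 in monocytes, against 586, 151 and 206 in microglia. Both Cre comparisons overlapped, with log2 differences of 0.91 (95% confidence interval -0.65 to 2.46) in KO and 1.41 (-0.15 to 2.97) in Control mice, which did not pass the test (limma adjusted p = 0.556 and 0.308). Mmp14 was the only one of the 10 genes with no call in any of the 3 population comparisons of limma with all libraries.

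Adam8, a membrane metalloprotease of leukocytes, was 148, 252, 0 and 284 in GFP monocytes, against 5.17, 6.02, 3.75 and 1.48 in GFP microglia, and did not enter the test. In KO mice it was 2112, 507 and 962 in monocytes, against 24.6, 1.87 and 64.6 in microglia, and rose by 5.90 (SE 1.17, limma adjusted p = 0.0106). In Control mice it was 696, 452 and 666 in monocytes, against 355, 143 and 33.3 in microglia, a difference of 2.30 (SE 1.17, limma adjusted p = 0.312) without overlap. Leaving out KO monocytes 1 moved the KO comparison to a limma adjusted p of 0.0523. Neutrophils also carry Adam8. All 8 neutrophil markers were detected in KO monocytes, where they summed to 13430.3, 3021 and 4689 in libraries 1 to 3, so KO monocytes 1 was highest in both Adam8 and these markers. In KO microglia, where Ly6g, Ngp, Ltf and Mmp8 were at 0, they summed to 1373 to 1892. The sums were 3065 to 5936 in Control monocytes and 754 to 1748 in Control microglia. In the GFP line they were 418 to 1120 in monocytes and 892 to 1459 in microglia. Most of the microglial sums was Csf3r, which averaged 1239 in GFP, 1273 in KO and 1178 in Control microglia. Its means in monocytes were 513 in GFP, 418 in KO and 1271 in Control mice. Ly6g, Camp, Ltf and Retnlg were at 0 in every GFP microglia library. The part of neutrophil RNA in Adam8 was not tested.

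Adamts1, a secreted protease that cuts versican and aggrecan, was higher in microglia. It was 19.4, 0, 0 and 14.5 in GFP monocytes, against 511, 556, 252 and 261 in GFP microglia. No monocyte library reached a microglia library, and the difference of -6.46 narrowly missed the test (SE 1.66, limma adjusted p = 0.0586). Without the 3 libraries of few genes it was -6.29 (SE 1.03, limma adjusted p = 0.00166). In KO mice Adamts1 was 107, 0 and 36.1 in monocytes, against 4057, 2650.5 and 3721 in microglia (log2 -7.75, SE 2.00, limma adjusted p = 0.0383). In Control mice it was 0, 0 and 187 in monocytes, against 5636, 4193 and 1539 in microglia (log2 -9.18, SE 2.00, limma adjusted p = 0.0172). The libraries of the 2 populations were apart in both, but the calls were fragile: the KO call was lost in 5 of 6 fits without 1 library, all but the one without KO monocytes 1, and the Control call in 4 of 6, those without Control monocytes 1 or 2 or Control microglia 1 or 2. The KO call was also lost in edgeR (adjusted p = 0.123). The Control call was also lost in edgeR (adjusted p = 0.148), in DESeq2 (adjusted p = 0.0550) and with only the 2 Control groups in the limma fit (adjusted p = 0.0741).

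**Figure D3:**
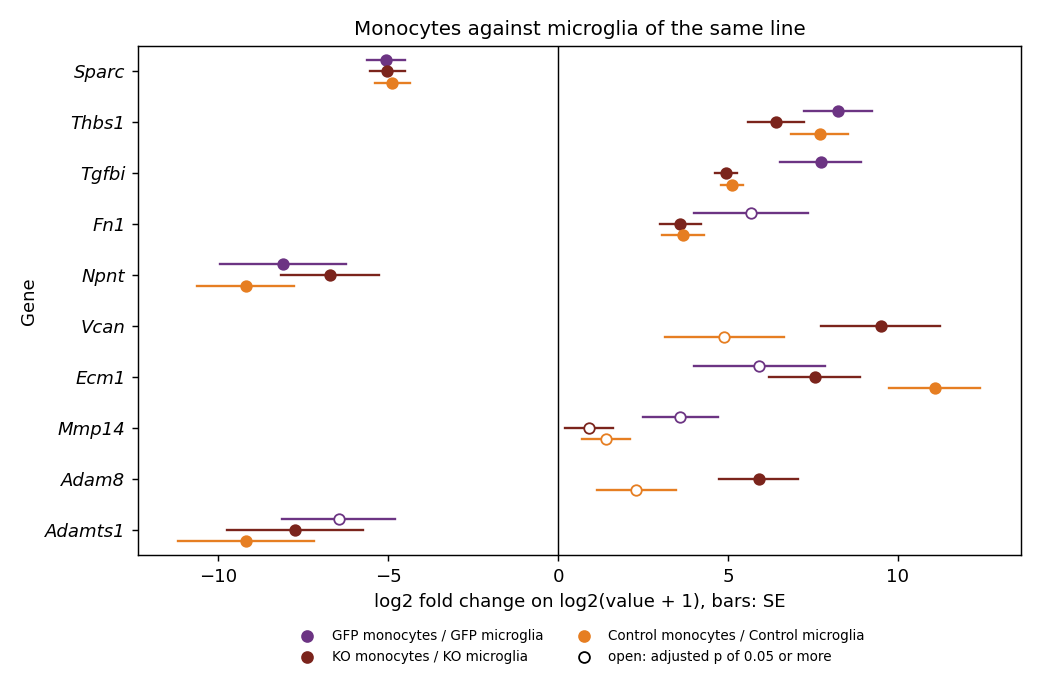
Log2 fold change of monocytes over microglia on the log2(value + 1) scale for each gene, in GFP, KO and Control mice from top to bottom within a gene. Bars are standard errors, filled points have a limma adjusted p under 0.05, and Vcan and Adam8 were not tested in the GFP libraries. Sparc lies at -5.08, -5.02 and -4.88, and Mmp14 is open throughout. Points for Npnt and Ecm1 in Control and Vcan in KO mice, where a group is at 0, depend on the pseudocount.

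Without overlap between populations, 7 of the 8 tested genes stood apart in the GFP libraries, where 9.41% of tested genes did. In KO mice 9 of 10 did, where 27.5% did, and in Control mice 8 of 10, where 22.1% did. The median log2 difference over the tested genes was 4.64 in GFP mice, 4.27 in KO mice and 2.99 in Control mice, beside 0.508, -0.248 and -0.240 over all tested genes. The medians in KO and Control mice are the same with Vcan (KO) or with Npnt and Ecm1 (Control) set at their bounds. Without the 3 GFP libraries of few genes, all 8 tested genes passed, where 15.5% of the tested genes did, and DESeq2 on all GFP libraries called 7 members, where it called 3.68% of genes.

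The microglia-high genes differed in how much of them remained in monocytes. Sparc in monocyte libraries was 2.26% to 4.05% of the microglial mean in the GFP line, 1.12% to 6.79% in KO mice and 2.93% to 4.04% in Control mice. Npnt was at most 0.183% in GFP monocytes, 10.7% in KO monocytes 1 and 0 in the other 5 Cre monocyte libraries. Adamts1 reached at most 4.92%, 3.07% and 4.93% in GFP, KO and Control monocytes. In KO monocytes 1 Npnt was thus higher, and Sparc (1.12%) lower, than in any other Cre monocyte library on this scale. Microglia markers in that library summed to 8.02%, the lowest of the 6 Cre monocyte libraries. What microglial RNA contributes to these residues was not tested. Astrocytes also make SPARC: 6 of 7 astrocyte markers were detected in GFP monocytes and in GFP microglia, with sums of 1.32 to 99.8 in the monocytes against 178 to 692 in the microglia. The sums were 444 to 2403 in KO monocytes and 2763 to 2965 in KO microglia, and 338 to 2535 in Control monocytes and 1586 to 2509 in Control microglia. Most of the microglial sums was Slc1a3, which averaged 28.0 in KO monocytes and 2199 in KO microglia. Gja1 ran the other way, with 1113 in KO monocytes and 229 in KO microglia, and 906 in Control monocytes and 264 in Control microglia. Aqp4 was at 0 in GFP monocytes and in both KO populations. The part of astrocyte RNA was not tested. Endothelial markers, from another source of SPARC, summed to 89.6 to 231 in GFP monocytes and 25.2 to 121 in GFP microglia. In the Cre line they summed to 426 to 701 in KO monocytes and 225 to 745 in KO microglia, and to 412 to 1139 in Control monocytes and 382 to 509 in Control microglia.

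**Figure D4:**
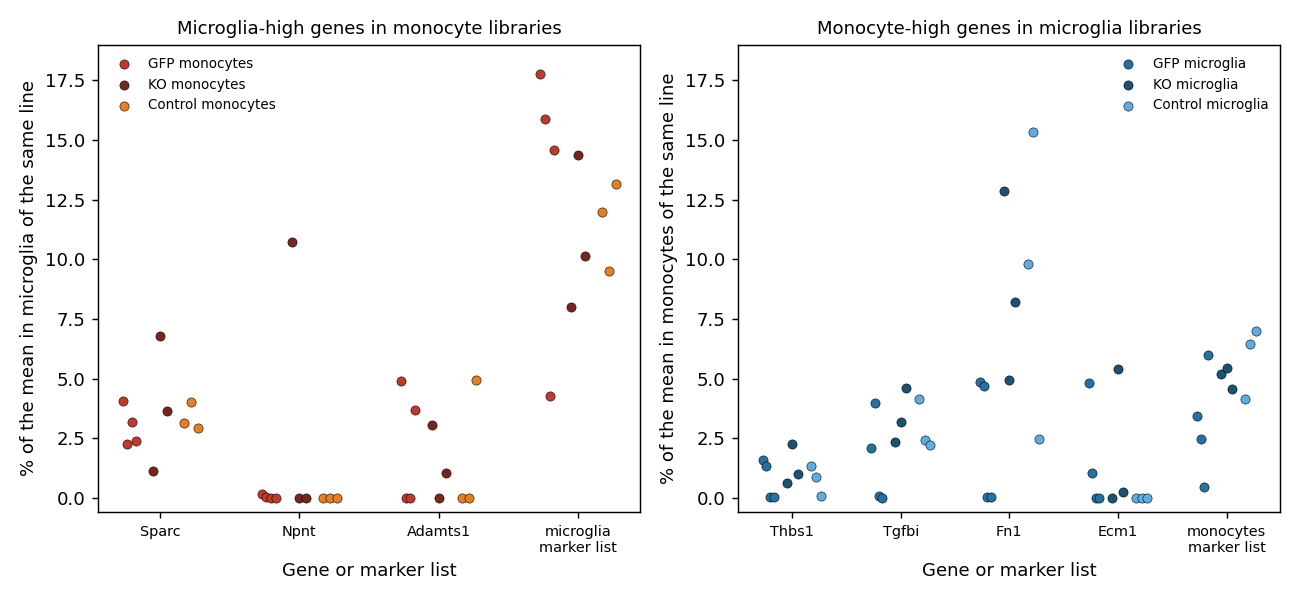
Left, genes high in microglia as a percentage of their mean in microglia of the same line and genotype, in each monocyte library, beside the summed microglia markers. Right, genes high in monocytes as a percentage of their monocyte mean, in each microglia library, beside the summed monocyte markers. Points are libraries. Npnt is at 10.7% in 1 KO monocyte library and at or near 0 elsewhere, and Fn1 in microglia reaches 15.4%.

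In microglia, of Thbs1, Tgfbi, Fn1 and Ecm1, Fn1 reached the highest share of its monocyte mean in both Cre genotypes. It stood at 4.96% to 12.9% of the monocyte mean in KO microglia and 2.49% to 15.4% in Control microglia. Thbs1 was at 0.615% to 2.25% in KO microglia and 0.0866% to 1.34% in Control microglia, and Tgfbi at 2.33% to 4.61% in KO and 2.23% to 4.14% in Control microglia. The monocyte markers Ly6c2 and Chil3 were at 0 in KO and GFP microglia, while Lyz2 stood at 6.25% to 7.85% of its monocyte mean in KO microglia.

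Stretches of 150 bases upstream of the RefSeq start are shown for the 3 microglia-high genes and for Tgfbi and Ecm1, to set genes high in microglia beside genes high in monocytes. RefSeq promoters on GRCm38.p6 were found for 8 of the 10 genes, and Thbs1 and Fn1 are named only. Capitals mark matches to 4 short motifs sought on both strands, with no overlap between matches of different motifs. The TATA box was sought as TATAAA, and the GC box as GGGCGG. The site of the factor AP-1 was sought as TGANTCA, with N for any base, and the core site of PU.1, a factor of myeloid cells, as GAGGAA.
Sparc, chr11:55420081-55420230, minus strand: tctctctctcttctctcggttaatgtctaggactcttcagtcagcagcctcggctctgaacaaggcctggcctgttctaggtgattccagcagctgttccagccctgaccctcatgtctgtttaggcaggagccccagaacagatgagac
Npnt, chr3:132950292-132950441, minus strand: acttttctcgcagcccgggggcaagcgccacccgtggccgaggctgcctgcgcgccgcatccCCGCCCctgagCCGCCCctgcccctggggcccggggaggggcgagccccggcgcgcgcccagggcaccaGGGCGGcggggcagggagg
Adamts1, chr16:85803114-85803263, minus strand: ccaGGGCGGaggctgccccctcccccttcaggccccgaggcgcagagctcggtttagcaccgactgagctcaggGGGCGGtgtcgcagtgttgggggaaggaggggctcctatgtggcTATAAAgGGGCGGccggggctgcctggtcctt
Tgfbi, chr13:56609436-56609585, plus strand: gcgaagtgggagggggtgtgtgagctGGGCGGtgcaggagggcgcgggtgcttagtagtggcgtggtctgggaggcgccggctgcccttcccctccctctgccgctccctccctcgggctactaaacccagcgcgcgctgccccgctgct
Ecm1, chr3:95739570-95739719, minus strand: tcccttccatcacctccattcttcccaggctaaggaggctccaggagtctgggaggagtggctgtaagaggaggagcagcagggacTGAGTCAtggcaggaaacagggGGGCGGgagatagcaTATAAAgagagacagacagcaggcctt
Sparc holds none of the 4 motifs in this window, and Npnt holds 3 GC boxes before its first start and none of the motifs before its other start. Adamts1 has a TATA box beginning 32 bases upstream of its start and 3 GC boxes, and Ecm1 has a TATA box beginning 27 bases upstream, a GC box and an AP-1 site. Tgfbi, Vcan and Adam8 hold 1 GC box each and Mmp14 holds 2. No member window holds GAGGAA. Among 32851 RefSeq windows of this length, 7.57% hold TATAAA, 28.6% GGGCGG, 4.24% TGANTCA and 14.5% GAGGAA. No motif separates the microglia-high from the monocyte-high genes, and a match or its absence says only which letters stand in these windows.

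Between KO and Control mice, matrix gene levels in monocytes were close for some genes and loosely bounded for others. None of the 10 passed the test in monocytes, where 0.0402% of 12432 genes did (756 genes at an unadjusted p under 0.05, 0 genes in edgeR and 338 in DESeq2, which called none of the 10 either). Tgfbi was 28309.8 ± 2478 in KO monocytes and 28134 ± 7472 in Control monocytes (SD, n = 3 each), a log2 difference of 0.04 with a 95% confidence interval from -0.67 to 0.76. Sparc was 636 ± 469 in KO and 509.9 ± 89.9 in Control monocytes, a difference of -0.01 (-1.15 to 1.13). For Fn1 the difference was -0.05 (-1.40 to 1.29) and for Thbs1 -0.21 (-2.03 to 1.61). The intervals of these 4 genes leave room for changes of the order of their width, and a missed threshold does not show equality. Ecm1 was the only one of the 10 whose genotypes did not overlap in monocytes, with 1488, 818 and 1844 in KO against 1886, 2495 and 2185 in Control monocytes, where 8.82% of all tested genes had no overlap. Its log2 difference was -0.73 (-3.66 to 2.19, limma adjusted p = 0.983). Adam8 was 1194 ± 827 in KO and 605 ± 133 in Control monocytes (0.77, -1.79 to 3.32), and Vcan 769 ± 311 in KO and 455 ± 249 in Control monocytes (0.82, -2.99 to 4.62). Mmp14 differed by -0.21 (-1.77 to 1.34) and Adamts1 by 1.47 (-2.90 to 5.84). The sign of the Adamts1 estimate, fitted on log2 values, is opposite to that of its means, which were 47.6 ± 54.3 in KO and 62.2 ± 108 in Control monocytes (SD, n = 3 each).

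In microglia the same comparison called none of the 10 genes in limma, where 0.0322% of 12432 genes passed (439 at an unadjusted p under 0.05, Adam8 among them, and 0 in edgeR). Sparc was 16507 ± 3259.9 in KO and 15162 ± 3411 in Control microglia (SD, n = 3 each), a log2 difference of 0.13 (95% confidence interval -1.01 to 1.27). Tgfbi differed by 0.21 (-0.50 to 0.93), Fn1 by 0.03 (-1.31 to 1.37) and Thbs1 by 1.07 (-0.75 to 2.89). For Mmp14 the difference was 0.29 (-1.26 to 1.85), for Npnt -0.68 (-3.81 to 2.45) and for Adamts1 0.05 (-4.32 to 4.41). In no gene of the 10 were the genotypes apart in microglia, where 9.46% of all tested genes had no overlap. The larger differences were those of Adam8, Vcan and Ecm1. Adam8 was 24.6, 1.87 and 64.6 in KO against 355, 143 and 33.3 in Control microglia, a difference of -2.84 (-5.39 to -0.28) whose unadjusted p of 0.0325 became 1 after adjustment in limma, and the groups overlapped. Vcan was 0 in the 3 KO libraries against 376, 5.91 and 0 in Control microglia, and Ecm1 was 0, 74.9 and 3.45 in KO against 0 in the 3 Control libraries. DESeq2 on recovered reads called both, Vcan as lower (adjusted p = 0.00121) and Ecm1 as higher (adjusted p = 0.00374), where it called 0.898% of genes. In each, 1 library held most of the reads: Control microglia 1 held 535 of 541 Vcan reads and KO microglia 2 held 40 of 44 Ecm1 reads. In limma, leaving out Control microglia 1 moved the fitted Vcan difference to -1.39, and leaving out KO microglia 2 moved that of Ecm1 to 1.08, values that depend on the pseudocount because the other genotype is at 0.

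**Figure D5:**
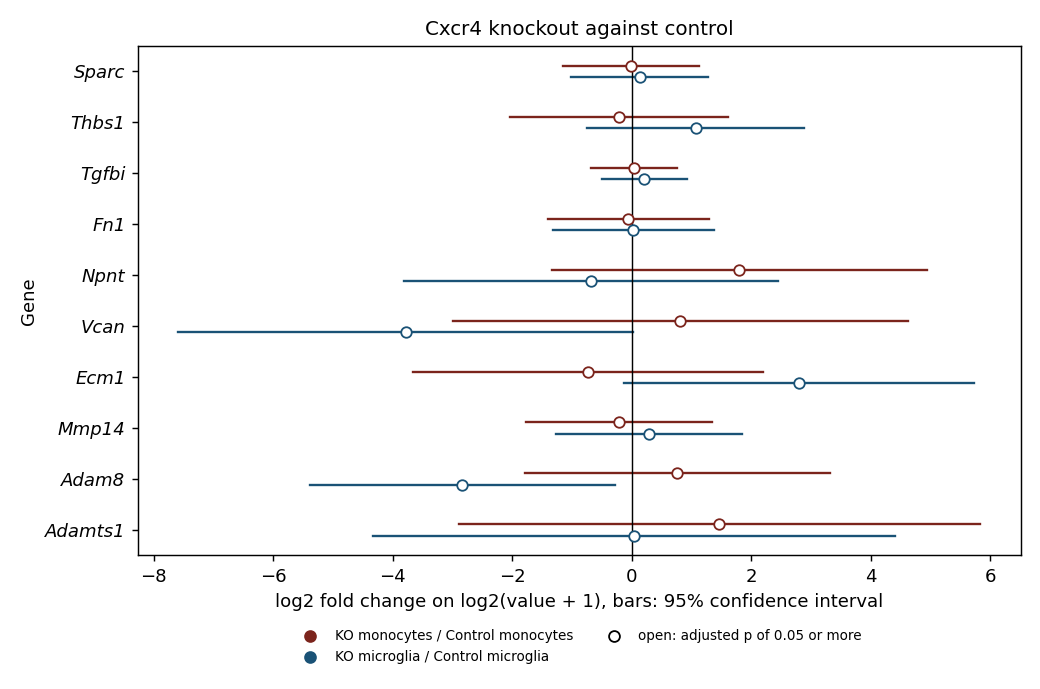
Log2 fold change of KO over Control on the log2(value + 1) scale in monocytes (upper point of each gene) and microglia (lower point), with 95% confidence intervals from limma. All points are open, meaning an adjusted p of 0.05 or more. The intervals are narrowest for Tgfbi (-0.67 to 0.76 in monocytes) and widest for Adamts1 (-2.90 to 5.84 in monocytes). Points for Npnt in monocytes and for Vcan and Ecm1 in microglia, where a group is at 0, depend on the pseudocount.

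Whether the genotype difference itself differed between monocytes and microglia was tested with an interaction term. No gene passed in limma, which is 0% of 12432 (590 at an unadjusted p under 0.05, smallest adjusted p 0.301), and none of the 10 did. The estimates were -0.14 (95% confidence interval -1.76 to 1.47) for Sparc, -0.17 (-1.18 to 0.84) for Tgfbi and 3.60 (-0.01 to 7.21) for Adam8. DESeq2 called 276 genes, 2.29% of those it tested, among them Vcan (adjusted p = 0.0106) and Ecm1 (adjusted p = 0.0119). As given above, most microglial reads of each lay in 1 library, and DESeq2 was not refitted without it. edgeR called 0.

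The wider matrix programme was read from 6 lists that together hold 193 other genes, of which 49 could be tested in the GFP and 98 in the Cre libraries. In GFP mice 4 were higher and 2 lower in monocytes, where 0.908% of all tested genes passed. In KO mice 12 were higher and 9 lower, where 6.83% of all tested genes passed, and in Control mice 14 were higher and 13 lower, where 6.52% did. By direction, 0.415% of all tested genes were higher and 0.493% lower in GFP monocytes. These shares were 3.85% and 2.98% in KO mice and 3.46% and 3.06% in Control mice. The counts of each list below stand beside these shares. The median difference of the tested list genes was -0.142, -0.247 and -0.144, beside 0.508, -0.248 and -0.240 over all genes. Between genotypes 0 of 98 passed in monocytes, in microglia or for the interaction in limma.

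Of the matricellular list, both tested genes of the GFP libraries and 2 of 5 in the Cre libraries were higher in monocytes. Spp1, osteopontin, averaged 1902 ± 862 in GFP monocytes and 184 ± 157 in GFP microglia (SD, n = 4 each, log2 4.28, limma adjusted p = 0.0224). It was also higher in KO monocytes (log2 2.70, limma adjusted p = 0.00144) and Control monocytes (log2 1.68, limma adjusted p = 0.0216). The other was Gpnmb, a membrane glycoprotein rather than a soluble matricellular protein, higher by 9.09, 11.12 and 11.26 in GFP, KO and Control monocytes (largest limma adjusted p 6.93e-05). Among structural genes Emilin2, an elastin-associated glycoprotein, was higher in monocytes in all 3 comparisons (log2 6.49, 7.01 and 8.53 in GFP, KO and Control mice, largest limma adjusted p 0.0266). Olfml3, a secreted protein of microglia, was lower in monocytes in all 3 (log2 -4.32, -3.29 and -3.29, largest limma adjusted p 0.0489). Col6a3, a collagen VI chain, was at 0 in all 6 Cre monocyte libraries, against 333 ± 243 in KO microglia (limma adjusted p = 0.00412) and 231 ± 185 in Control microglia (limma adjusted p = 0.00865). Lamb2, a laminin chain, was at 0 in KO and Control monocytes, against means of 138 in KO microglia (limma adjusted p = 0.00663) and 117 in Control microglia (limma adjusted p = 0.00939). Olfml2b was at 0 in Control monocytes, against 169 ± 109 in Control microglia (limma adjusted p = 0.0278).

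Of 23 tested metalloproteinases and plasminogen activators in the Cre libraries, 3 were higher in monocytes of each genotype and none lower. Over all tested genes, 3.85% were higher in KO and 3.46% in Control monocytes. Of 9 list genes tested in the GFP libraries none passed. The 3 higher genes were Mmp8 and Mmp9, a collagenase and a gelatinase of neutrophils and monocytes, and Plaur, the urokinase receptor. Mmp9 was 276 ± 284 in KO monocytes and 161 ± 160.4 in Control monocytes, and at 0 in all 6 Cre microglia libraries (limma adjusted p = 0.00234 and 0.00447). Mmp8 was 927 ± 510.3 in KO and 473 ± 284 in Control monocytes, also against 0 in microglia (limma adjusted p = 0.000202 and 0.000383); it is itself one of the neutrophil markers, whose sums are given with Adam8. Plaur was 20079.7 ± 9537 in KO monocytes and 3505 ± 909 in KO microglia (log2 2.44, limma adjusted p = 0.00551), and 15526 ± 5862 in Control monocytes and 2494 ± 1248 in Control microglia (log2 2.69, limma adjusted p = 0.00321).

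Of 12 tested protease inhibitors, 2 were higher and 3 lower in KO monocytes, and 3 higher and 3 lower in Control monocytes. Over all tested genes, 3.85% were higher and 2.98% lower in KO monocytes, and 3.46% and 3.06% in Control monocytes. Slpi, a leukocyte protease inhibitor, was 1533 ± 1421 in KO and 1121 ± 225 in Control monocytes and at 0 in all 6 microglia libraries (limma adjusted p = 0.000378 and 0.000334). Timp1, an inhibitor of metalloproteinases, was 214 ± 205 in KO monocytes and 0.624 ± 1.08 in KO microglia (limma adjusted p = 0.0169), and 445 ± 264 in Control monocytes and 0 in Control microglia (limma adjusted p = 0.00299). Serpinb2, an inhibitor of plasminogen activators, was 369 ± 449 in Control monocytes and 0 in Control microglia (limma adjusted p = 0.0113). Serpine2, a serpin that inhibits thrombin and plasminogen activators, was 192 ± 196 in KO monocytes and 7464 ± 1437 in KO microglia (log2 -6.03, limma adjusted p = 0.00184), and lower by a log2 difference of -7.07 in Control monocytes (limma adjusted p = 0.000599). Cst3, cystatin C, was the 1 inhibitor of 5 that passed in GFP libraries and was lower there (log2 -3.02, limma adjusted p = 8.22e-05), as in KO monocytes (log2 -2.60, limma adjusted p = 4.09e-05) and Control monocytes (log2 -2.93, limma adjusted p = 1.68e-05).

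In the crosslinking list 2 of 13 tested genes were higher and 1 lower in monocytes of each Cre genotype, and 0 of 6 passed in the GFP libraries. F13a1, coagulation factor XIII and one of the border-associated macrophage markers given beside Tgfbi, was 2869.7 ± 679.5 in KO monocytes and 73.5 ± 45.1 in KO microglia (log2 5.40, limma adjusted p = 0.0106), and 3837 ± 1606 in Control monocytes and 231 ± 273 in Control microglia (limma adjusted p = 0.0126). Tgm2, tissue transglutaminase, was higher by 3.60 in KO and 3.38 in Control monocytes (limma adjusted p = 0.0109 and 0.0149), and Plod1, a lysyl hydroxylase of collagen, was lower (log2 -3.41 and -2.70, limma adjusted p = 0.0154 and 0.0475). Of the receptors, Cd44, which binds hyaluronan and is also one of the monocyte markers, was higher in GFP monocytes (log2 5.85, limma adjusted p = 0.0119) and Control monocytes (log2 7.35, limma adjusted p = 0.0379). In KO mice it did not pass the test, although its means were 7159 in monocytes and 187 in microglia, without overlap. Cd36, a thrombospondin receptor, was 3128 ± 1922 in KO monocytes and 199 ± 75.3 in KO microglia (log2 3.78, limma adjusted p = 0.00698), and also higher in Control monocytes (log2 3.69, limma adjusted p = 0.00825). Itgb3, an integrin chain, was 0.689 ± 0.645 in Control monocytes and 452 ± 46.3 in Control microglia (log2 -8.14, limma adjusted p = 0.0109). Mrc2, a collagen receptor, was 0.375 ± 0.650 in KO monocytes and 127 ± 150.5 in KO microglia (limma adjusted p = 0.0147), and at 0 in Control monocytes against 42.6 ± 31.2 in Control microglia (limma adjusted p = 0.0325). Tgfbr1, a TGF-beta receptor, was lower in KO monocytes (log2 -1.66, limma adjusted p = 0.0195) and Control monocytes (log2 -1.48, limma adjusted p = 0.0349). In all, 1 of 18 tested receptor genes was higher and 0 lower in GFP monocytes, 1 of 23 higher and 2 lower in KO monocytes, and 2 higher and 4 lower in Control monocytes. The 1 of 23 higher in KO monocytes is near the 3.85% of all tested genes that were higher there.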

How the data were processed

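RNA of sorted brain monocytes and microglia was measured in 20 libraries, given in 2 tables. Per the labels' protocols, GFP libraries were made from total RNA (Nugen Ovation SoLo) and Cre libraries from polyA RNA (SMART-Seq2). The submitters' processing notes name CASAVA 1.82 and DESeq2 for the first, and bcl2fastq 2.20, kallisto and DESeq2 for the second. Genome build, strandedness and the aligner behind the GFP values were not given in the sources used here. The authors deposited a normalized signal per gene: 100% of values above 0 were whole multiples of 1 step per library within 0.01, so reads could be recovered for edgeR 4.0.16 and DESeq2 1.42.0 as alternatives. Of the Cre gene names 649 altered ones were restored and 24 stayed as dates, with no listed gene among them.

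Genes at 10 or more in at least 4 GFP or 3 Cre libraries entered limma 3.58.1 (R 4.3.3, two-sided) as log2(value + 1). The GFP fit had 2 groups, and 4 groups shared 1 spread in the Cre fit. P-values were adjusted by Benjamini-Hochberg over all tested genes and called under 0.05. The added 1 understates changes of low values, but libraries at or near 0 can make a fold on this scale larger than the ratio of group means. For Vcan in Control mice the log2 difference was 4.89, while the mean was 3.57-fold higher in monocytes. Bounds for groups at 0 use 3 reads over the group, and bounds and counting intervals cover counting error only. The procedure was tested on simulated counts with the same spread for every gene and no libraries of few detected genes. That test therefore does not show how the fit performs on the GFP libraries of few genes. Replicates are separate animals or pools, per the titles.

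The 10 genes, the 6 matrix lists, the marker lists and the tests were chosen with earlier results of these data known. All 10 genes are named, and per list the 3 called genes with the largest difference in a comparison, with values from other comparisons where they passed. Titles show which libraries share an animal or pool. Deviations of such pairs correlated at 0.238, 0.198, 0.127 and -0.113 (GFP) and between -0.0555 and 0.0095 (Cre). Over whole gene bodies, Thbs1, Fn1, Npnt, Vcan and Adam8 overlap a gene on the other strand in GENCODE. Whether exons overlap was not checked, and where they do, reads cannot be told apart unless strand was used.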

Additional observations from a re-analysis of the deposited data

Results flagged for a closer look

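Groups of 4 libraries were screened for a library far from the other 3, which can be done only in the GFP libraries. Of the 20 gene-and-group sets 2 were marked. Chance marks about 1 in 20 only where values follow a normal distribution. A set with 3 libraries at 0 and 1 above it is always marked, as Vcan was, so that mark cannot be set against this rate. Mmp14 was 934 in GFP monocytes 3, against 387, 451 and 414 in the other monocyte libraries. That library had the fewest detected genes, 3029, and also held the lowest Fn1, Vcan and Adam8 of its group. Vcan was 6.88 in GFP microglia 2, from 16 reads, and 0 in the other 3 GFP microglia libraries. That library was the deepest GFP microglia library, with 5551307 reads, of which 48.3% were Rn45s.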

How the results depend on the processing

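No call of the 10 genes reversed direction under any alternative. Of the gene-level alternative values 827 counted as unchanged, 27 lost and 26 gained a call. Unchanged means on the same side of the threshold. The exceptions are Vcan and Adam8 in the GFP comparison, which had no main test and were compared by the size of the difference. In the GFP comparison 4 genes were called, but 7 with a pseudocount of 10, 7 with DESeq2 and 8 once GFP monocytes 3, GFP microglia 3 and GFP microglia 4 were dropped (chosen in an earlier analysis of these data); leaving out 1 library gave 3 to 6. In KO against Control microglia, and for the interaction, DESeq2 called 2 genes each where limma called 0. Leaving out 1 library gave 7 to 8 called genes in KO and 6 to 7 in Control mice between populations, and 0 between genotypes. With the replicate block of animal or pool, 5, 9 and 7 genes were called in the GFP, KO and Control comparisons of populations and 0 between genotypes; Fn1 in GFP mice was its only changed call. Over all genes, GFP calls numbered 70, against 198 (pseudocount 10), 190 (DESeq2), 38 (no filter), 14 (upper quartile scaling), 33 without GFP microglia 3, 129 without GFP monocytes 3 and 1198 without GFP monocytes 3 and GFP microglia 3 and 4. Population calls were 849 in KO mice (522 in edgeR, 1570 in DESeq2, 482 to 622 without 1 library) and 810 in Control mice (478, 1614 and 574 to 679; 386 fitted alone). Genotype calls were 5 in monocytes (2 to 30 without 1 library, 338 in DESeq2) and 4 in microglia (0 to 8, and 108 in DESeq2), and 0 in edgeR or with the pair of groups fitted alone; for the interaction DESeq2 called 276 against 0. CPM scaling moved the median of all genes to 0.65 in GFP, -0.48 in KO and -0.40 in Control mice, without turning any of the 10 genes that was called. The cause of these changes was not tested. Depth limits the low values: Npnt had 3 reads in GFP monocytes, and Ecm1 7 in GFP microglia and 44 in KO microglia.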

Other observations

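The KO animal that gave both KO monocytes 1 and KO microglia 2 held 2 values that stand apart. Npnt was 41.6 in KO monocytes 1 and 0 in the other 5 Cre monocyte libraries. Ecm1 was 74.9 in KO microglia 2, 3.45 in KO microglia 3 and 0 in the other 4 Cre microglia libraries. In KO microglia 2, monocyte markers summed to 5.46% of the monocyte mean, beside 5.20% and 4.55% in KO microglia 1 and 3. Lyz2 made up most of these sums. Ccr2 (0.925%), Ms4a7 (2.15%), Itga4 (17.0%) and Cd44 (5.75%) were highest in KO microglia 2 among the KO microglia libraries. Plac8 and Lyz2 were not, and Ly6c2 and Chil3 were at 0 in every KO microglia library. The part of monocyte RNA in the Ecm1 value was not tested.

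A few further matrix genes passed in the Cre libraries and are named here after their values were seen. Srgn, the core protein of the granule proteoglycan serglycin, was higher in KO monocytes (log2 2.01, limma adjusted p = 0.00124) and Control monocytes (log2 1.89, limma adjusted p = 0.00202). Timp2, an inhibitor of metalloproteinases, was lower in KO monocytes (log2 -1.82, limma adjusted p = 0.0168) and Control monocytes (log2 -1.62, limma adjusted p = 0.0298). Nid2, a basement membrane linker, averaged 5.53 ± 9.57 in Control monocytes and 481 ± 434 in Control microglia (limma adjusted p = 0.0381).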
